A study of Mus musculus with 24 samples.

Results

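The genes described here encode 10 mouse factors that write, anchor or read methylation of lysine 9 of histone H3 (H3K9): Ehmt2, Ehmt1, Wiz, Setdb1, Suv39h1, Suv39h2, Cbx1, Cbx3, Cbx5 and Trim28. They were chosen by name, and each matched 1 of the 24016 genes in the deposited gene table. RNA came from a female hybrid mouse embryonic stem cell line, 16.7 Tsix +/TST, and from cells of the same line in which G9a, the product of Ehmt2, had been deleted. The parental cells are called WT here and the deleted cells KO, and both carry the Tsix +/TST allele. Each genotype was taken undifferentiated (day 0) and after 10 days without LIF, of which 4 were in suspension and 6 on gelatin (day 10). There were 3 RNA libraries in each of the 4 groups, and 1 ChIP sample per group for H3K9 acetylation (H3K9ac). The labels do not say whether the KO is 1 clone, nor whether the 3 libraries of a group came from separate cultures, so p-values measure only the spread between these libraries.

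G9a and GLP, the product of Ehmt1, work as a heterodimer that places mono- and dimethyl marks on H3K9 in euchromatin, and WIZ is a zinc finger protein of the same complex. SETDB1 places trimethyl marks and is brought to retroelements and imprinted loci by TRIM28 (KAP1), which itself is recruited by KRAB zinc finger proteins. SUV39H1 and SUV39H2 trimethylate H3K9 in pericentric heterochromatin, and the HP1 proteins encoded by Cbx5 (HP1 alpha), Cbx1 (HP1 beta) and Cbx3 (HP1 gamma) bind the methylated lysine. An acetyl group and a methyl group cannot occupy the same lysine at once, and H3K9ac marks active promoters.

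Promoters are shown for the deleted gene Ehmt2 and its partner Ehmt1, for Suv39h1 and Wiz, the factors called in KO cells, and for Trim28, which had the lowest p of the factors between KO and WT at day 10. Each sequence runs from 250 bases before to 50 bases after a RefSeq transcript start (build GRCm38.p6), 5′ to 3′ on the gene's strand. Capitals mark 3 motifs searched on both strands: GGGCGG, the GC box bound by Sp factors; the NRF1 core (GCGCA, any base, then GCGC); and AANATGGCG, a core of the YY1 motif. Suv39h1 is shown at both of its listed starts.
Ehmt2 (chr17:34898224-34898523, plus strand): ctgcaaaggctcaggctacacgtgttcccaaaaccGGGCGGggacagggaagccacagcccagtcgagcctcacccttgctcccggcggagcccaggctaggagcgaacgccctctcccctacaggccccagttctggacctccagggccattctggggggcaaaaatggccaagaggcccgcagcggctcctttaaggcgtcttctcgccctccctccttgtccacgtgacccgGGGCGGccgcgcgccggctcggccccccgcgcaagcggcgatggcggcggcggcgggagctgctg
Ehmt1 (chr2:24919560-24919859, minus strand): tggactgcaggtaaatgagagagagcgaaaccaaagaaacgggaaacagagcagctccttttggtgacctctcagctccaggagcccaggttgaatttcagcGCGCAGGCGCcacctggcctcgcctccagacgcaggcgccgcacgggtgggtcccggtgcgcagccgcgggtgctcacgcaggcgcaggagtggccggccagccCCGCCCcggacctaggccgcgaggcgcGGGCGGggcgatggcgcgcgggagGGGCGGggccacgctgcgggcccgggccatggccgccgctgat
Wiz (chr17:32389357-32389656, minus strand): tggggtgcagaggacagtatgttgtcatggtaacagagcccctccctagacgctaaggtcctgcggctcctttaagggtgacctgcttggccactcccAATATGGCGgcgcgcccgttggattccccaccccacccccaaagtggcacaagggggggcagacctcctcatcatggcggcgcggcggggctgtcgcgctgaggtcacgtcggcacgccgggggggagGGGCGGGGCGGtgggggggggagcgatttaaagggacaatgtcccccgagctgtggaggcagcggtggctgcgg
Suv39h1, outer start (chrX:8074711-8075010, minus strand): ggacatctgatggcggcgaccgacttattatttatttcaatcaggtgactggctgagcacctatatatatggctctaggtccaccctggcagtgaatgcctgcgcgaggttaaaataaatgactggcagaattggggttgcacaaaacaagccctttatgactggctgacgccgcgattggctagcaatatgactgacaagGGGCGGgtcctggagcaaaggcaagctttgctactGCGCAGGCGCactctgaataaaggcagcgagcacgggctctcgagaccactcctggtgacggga
Suv39h1, inner start (chrX:8074312-8074611, minus strand): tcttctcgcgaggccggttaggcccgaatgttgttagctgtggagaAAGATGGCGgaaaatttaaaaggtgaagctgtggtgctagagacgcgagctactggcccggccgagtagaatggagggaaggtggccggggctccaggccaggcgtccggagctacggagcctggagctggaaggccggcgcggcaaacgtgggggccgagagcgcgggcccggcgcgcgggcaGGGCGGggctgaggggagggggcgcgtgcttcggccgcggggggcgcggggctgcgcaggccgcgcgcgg
Trim28 (chr7:13023902-13024201, plus strand): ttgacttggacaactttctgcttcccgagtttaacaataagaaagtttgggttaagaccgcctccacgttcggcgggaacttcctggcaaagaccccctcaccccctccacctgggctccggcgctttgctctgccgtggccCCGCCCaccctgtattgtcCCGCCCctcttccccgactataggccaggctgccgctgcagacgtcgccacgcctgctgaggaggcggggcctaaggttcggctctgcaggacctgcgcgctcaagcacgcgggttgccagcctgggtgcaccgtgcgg

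In none of the 6 sequences did different marked motifs overlap. GGGCGG was present in the outermost promoter of 10 of the 10 factors, against 35.7% of the 32851 RefSeq promoters of 300 bases. The NRF1 core was present in 4 of 10 (Ehmt1, Suv39h1, Suv39h2 and Cbx5) against 4.6%, and the YY1 core in 3 of 10 (Wiz, Suv39h2 and Cbx5) against 2.38%. The CCAAT box (CCAAT) was also searched but is not marked. It was present in 4 of 10 against 37.4% and so was not more frequent in the factors by much. The median promoter of the 10 factors had a GC content of 65.7% and 25.5 CpG, against 52.7% and 7 CpG over all promoters. These are matches of letters, and the motifs were chosen after the sequences had been seen. No factor was mapped at them here.

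Values are reads that the authors scaled to a common total per library ("scaled reads"). Whole reads could be recovered from them. Of the 12 libraries, 3 were deep (WT day 0 replicate 3 and KO day 0 replicates 2 and 3, with 21087157 to 30527844 reads) and 9 were shallow (2081129 to 4220140 reads). Rn45s, a ribosomal RNA gene, made up 0.115 to 0.129% of a deep library and 14.8 to 25.1% of a shallow one. Background reads in olfactory and vomeronasal receptor genes, which are silent in these cells, stood at 1023 and 1038 CPM (Rn45s left out of the total) in KO day 0 replicate 1 and WT day 10 replicate 3, against 29.6 to 361 elsewhere. All 10 stem cell markers were detected in every library. Their summed level was 30590 to 50862 scaled reads at day 0, 5524 to 10441 in WT at day 10 and 13119 to 16535 in KO at day 10. The summed level of 10 fibroblast markers, of which up to 3 per library were at 0, was 6964 in WT day 0 replicate 1 and 2254 in KO day 0 replicate 1, against 452 to 752 in the other day 0 libraries and 1056 to 7429 at day 10.

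All 10 factors were read in every library, from 33 reads of Suv39h2 in WT day 0 replicate 1 to 29319 reads of Trim28 in WT day 0 replicate 3. Levels of different genes are compared as scaled reads per kb of genomic span. The median over 12 libraries was highest for Trim28, at 1050 per kb (range 383 to 1334). It was 96.5 per kb for Cbx5, 81.1 for Cbx1, 53.0 for Suv39h1, 47.5 for Ehmt2 and 35.9 for Setdb1. Cbx3 followed with 28.7, Wiz with 19.0, Ehmt1 with 12.3 (8.30 to 16.2) and Suv39h2 with 8.49 (6.09 to 29.9). Trim28 stood clear of all others in every library, while the ranges of each neighbouring pair below it overlapped. A long gene with much intron is lowered on this scale, because the span is the only length given.

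**Figure D1:**
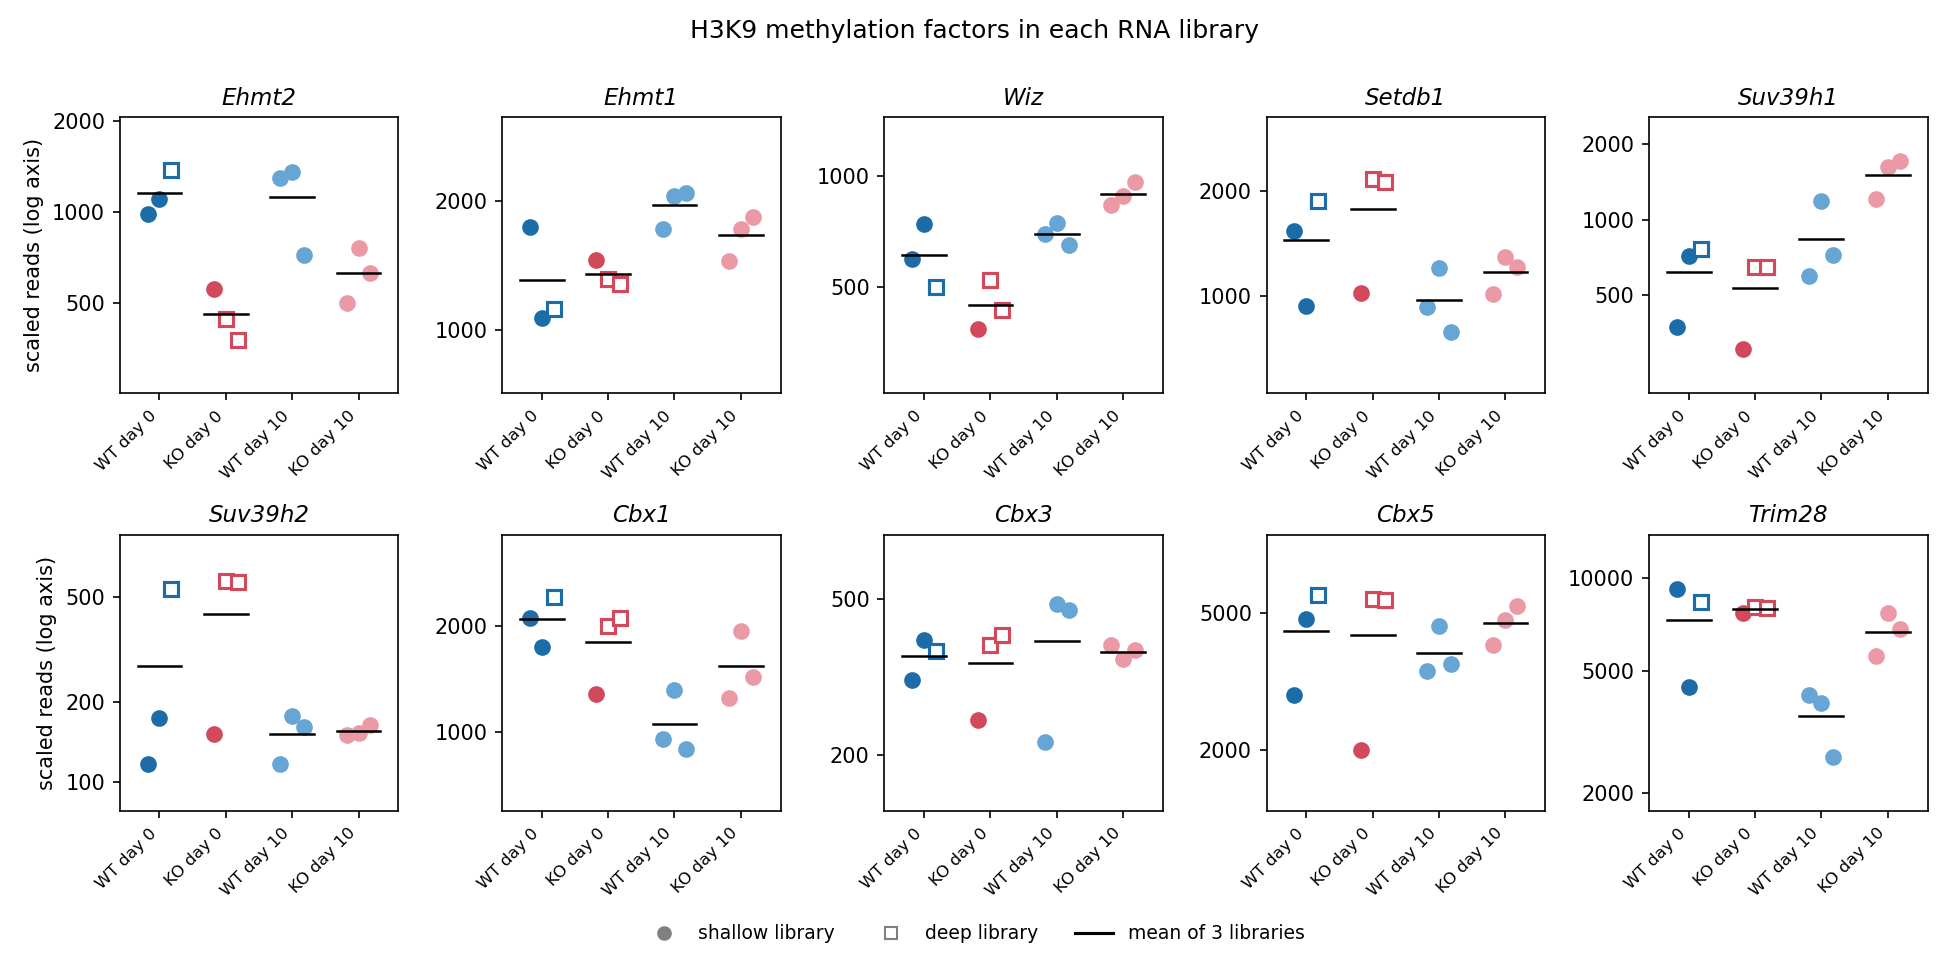
Scaled reads (log axis) of each factor in the 12 RNA libraries by group; filled circles are shallow libraries, open squares deep ones, and bars the means of 3 libraries. Ehmt2 is lower in all 3 KO than in all 3 WT libraries at day 0, and Suv39h2 is above 500 only in the 3 deep libraries.

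Ehmt2, the deleted gene (mm9 chr17:35035437-35050995, plus strand), was lower in KO than in WT before differentiation. Sorted from high to low, the WT libraries held 1375.1, 1102.3 and 986.8 scaled reads at day 0 and the KO libraries 557.3, 440.9 and 375.4. Every KO library lay below every WT library. The means were 1155 ± 199 in WT and 458 ± 92.1 in KO (SD, n = 3), a log2 difference of -1.34 ± 0.31 (SE; 95% interval -2.0 to -0.68) or 0.396-fold on the scale of log2(scaled reads + 1). By unadjusted p Ehmt2 ranked number 8 of the 20624 genes tested, yet it did not pass the test over all genes (limma adjusted p = 0.993). The adjusted p was 0.941 with edgeR and 0.0973 with DESeq2. The exact permutation p was 0.1, the smallest that 3 against 3 libraries can give. Within the deep libraries (1 WT, 2 KO) the log2 difference was -1.75 and within the shallow ones (2 WT, 1 KO) it was -0.90.

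Reads assigned to Ehmt2 were still present in KO. The gene table gives only a total per gene, so it shows neither where along Ehmt2 they lay nor which part was deleted. It therefore checks the labels only by the level of the remaining RNA. The labels' direction held in each day 0 library. At day 10 the KO libraries held 758.4, 628.3 and 499.8 scaled reads and the WT libraries 1358.9, 1296.9 and 718.6, so WT day 10 replicate 3 lay among the KO values. The log2 difference was -0.80 ± 0.31 (SE; 95% interval -1.46 to -0.14; limma adjusted p = 0.323), and -1.10 without WT day 10 replicate 3 and KO day 0 replicate 1, the libraries with the background reads. In the authors' deposited table the log2 ratios of Ehmt2 are -1.43 at day 0 (unadjusted p = 0.00241) and -0.75 at day 10 (unadjusted p = 0.0301).

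Ehmt1 (mm9 chr2:24646289-24775129, minus strand) had similar means in both genotypes at day 0. Its level was then 1310 ± 373 scaled reads in WT and 1349 ± 92.6 in KO (SD, n = 3), and the 95% interval of the log2 difference ran from -0.47 to 0.62. At day 10 it was 1950 ± 205 in WT and 1667 ± 197 in KO, with an interval of -0.78 to 0.32. The number of Ehmt2 reads per Ehmt1 read, taken inside a library and so free of its scaling, was 0.567, 1.03 and 1.23 in the WT libraries at day 0 and 0.293, 0.336 and 0.383 in the KO libraries. The KO libraries of day 10 had 0.343, 0.345 and 0.440, and the WT libraries of that day 0.345, 0.662 and 0.757. The ratio separated the genotypes at day 0, whereas at day 10 the lowest WT library lay within the KO range.

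Wiz (mm9 chr17:32490995-32526384, minus strand) had 743.2, 594.2 and 501.0 scaled reads in WT at day 0 and 521.7, 433.5 and 386.1 in KO, with 1 overlap. The log2 difference was -0.45 ± 0.25 (SE; limma adjusted p = 0.993). Of the other 8 factors none had groups that did not overlap at day 0. No 95% interval of their log2 differences excluded 0. Of the 10 factors 1 (Ehmt2) had groups that did not overlap, beside 10.5% of all genes tested. None of the 10 was called at day 0, as were 0% of the 20624 genes tested with limma, of which 788 had an unadjusted p under 0.05; edgeR called 0 genes and DESeq2 15. The median log2 difference was -0.11 over the factors and 0.17 over all genes.

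Suv39h2 (mm9 chr2:3373087-3392258, minus strand) differed between the deep and the shallow libraries. At day 0 the deep libraries held 534.5 scaled reads in WT and 570.7 and 573.8 in KO, while the shallow ones held 116.7 and 175.4 in WT and 152.6 in KO. All 6 libraries of day 10, which are shallow, held 117.3 to 177.1. Within each depth class the log2 difference of KO from WT at day 0 was 0.10 (deep) and 0.09 (shallow), against 0.73 over all 6 libraries. Depth cannot be told apart here from the Rn45s share, which differs between the same libraries. The gene overlaps Dclre1c on the other strand, and whether counting used strand is not given in the sources used here.

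At day 10 the libraries of Trim28, Suv39h1 and Wiz lay higher in KO than in WT without overlap, and none of the 3 was called. Trim28, the KAP1 corepressor gene (mm9 chr7:13609501-13616381, plus strand), held 5581.3, 6790.3 and 7661.0 scaled reads in KO and 2632.8, 3910.0 and 4171.8 in WT. All KO libraries lay above all WT libraries, and the means were 6678 ± 1044 and 3572 ± 823 (SD, n = 3). The log2 difference of 0.92 ± 0.30 (SE; 95% interval 0.28 to 1.56) had an unadjusted limma p of 0.00830 and an adjusted p of 0.257, and so was not called.

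Suv39h1, the X-linked gene of a pericentric H3K9 methyltransferase (mm9 chrX:7638297-7651886, minus strand), held 1205.9, 1623.6 and 1709.7 scaled reads in KO and 599.0, 721.4 and 1188.0 in WT. Again the groups did not overlap, though WT replicate 2 at 1188.0 came close to KO replicate 1. The log2 difference was 0.90 ± 0.38 (SE; 95% interval 0.08 to 1.72; limma adjusted p = 0.385). Wiz held 833.0 to 962.7 in KO and 649.6 to 745.4 in WT, also without overlap, with a log2 difference of 0.35 ± 0.25 and an adjusted limma p of 0.598. Cbx1, the gene of HP1 beta (mm9 chr11:96650450-96669954, plus strand), had 1536 ± 355 in KO and 1054 ± 229 in WT (SD, n = 3) with overlap, and a log2 difference of 0.54 ± 0.29 (limma adjusted p = 0.460).

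None of the 10 factors was called at day 10, nor was any other gene (0% of 20624 with limma). An unadjusted p under 0.05 was reached by 2462 genes, edgeR called 0 and DESeq2 558. No factor was among the DESeq2 calls; its adjusted p was 0.0612 for Trim28 and 0.0973 for Suv39h1. Of the 10 factors 3 had groups that did not overlap, all higher in KO, beside 18.1% of all genes in either direction. The median log2 difference was 0.29 over the factors and -0.26 over all genes. Over the 14884 genes kept by edgeR, with its own scaling, the median was -0.083, nearer to 0 than with limma. The stem cell marker sum was also higher in all 3 KO libraries (13119 to 16535) than in the WT libraries (5524 to 10441), and its part in these differences was not tested. Without the libraries with background reads the log2 differences were 0.71 for Trim28, 0.83 for Suv39h1 and 0.30 for Wiz. In bulk RNA a change in the number of cells that express a gene cannot be told apart from a change in RNA per cell. In the authors' deposited table, the log2 ratios at day 10 are 0.99 for Trim28 (unadjusted p = 8.78e-04), 0.96 for Suv39h1 (unadjusted p = 0.00316) and 0.64 for Cbx1 (unadjusted p = 0.0344).

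**Figure D2:**
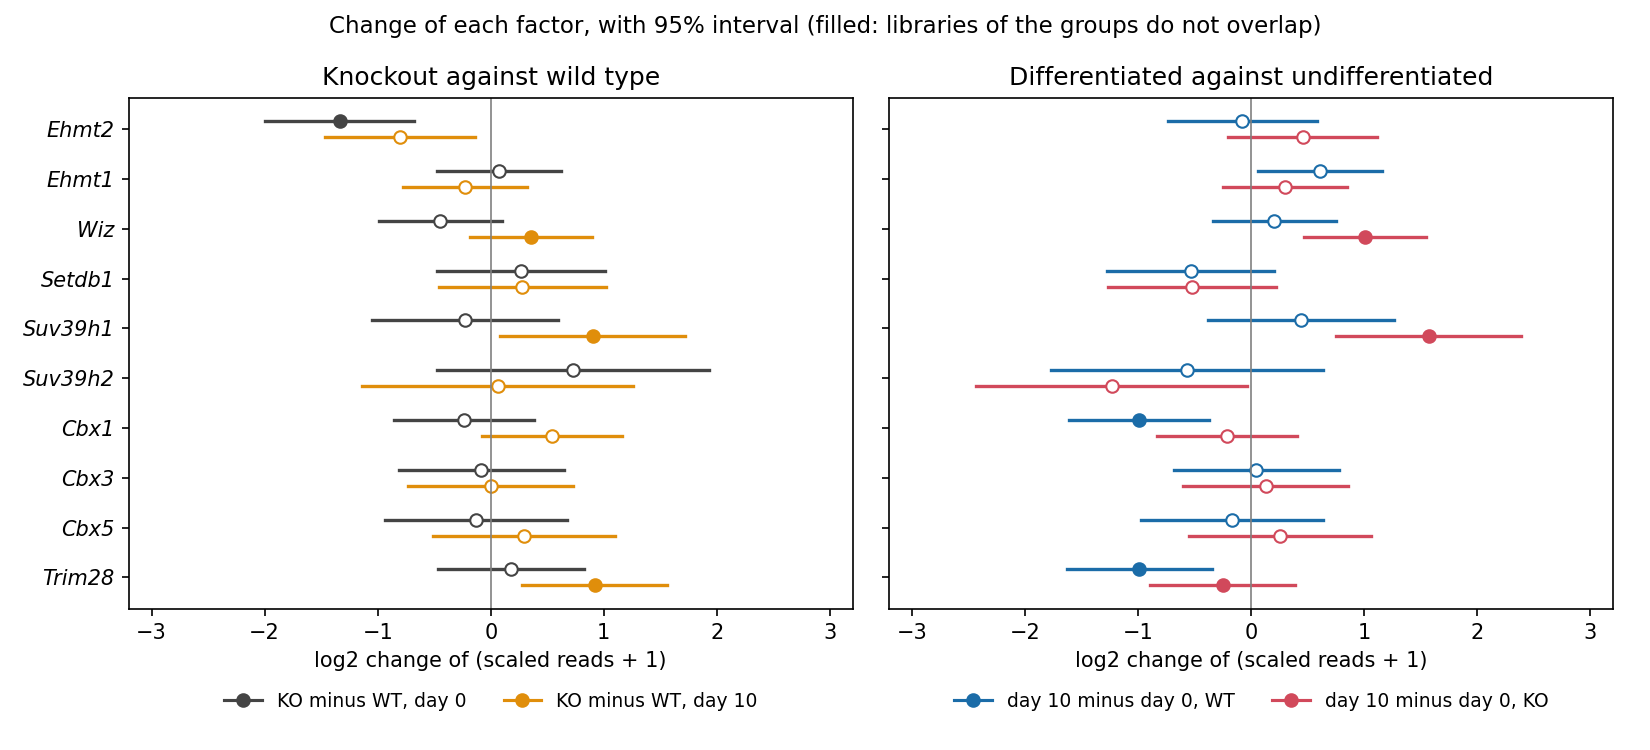
Log2 change of scaled reads plus 1 for each factor with its 95% interval; left, KO minus WT at day 0 (grey) and day 10 (orange), right, day 10 minus day 0 in WT (blue) and KO (red), filled points where the libraries of the groups do not overlap. On the left Ehmt2 alone is filled at day 0, at -1.34, and on the right Suv39h1 and Wiz stand highest in KO, at 1.57 and 1.00.

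Differentiation of WT cells was accompanied by lower Cbx1 and Trim28, without a call for either. Cbx1 held 2418.8, 2104.4 and 1736.9 scaled reads at day 0 and 1315.7, 951.1 and 893.9 at day 10, a log2 change of -0.99 ± 0.29 (SE; limma adjusted p = 0.0729). Trim28 held 9178.0, 8345.1 and 4409.0 at day 0 and at most 4171.8 at day 10, a log2 change of -0.99 ± 0.30 (limma adjusted p = 0.0857). In both genes every day 10 library lay below every day 0 library. Cbx1 passed with DESeq2 (adjusted p = 0.0188) and with depth as a covariate in limma (adjusted p = 0.0264). Trim28 passed without WT day 0 replicate 2, its lowest day 0 library (log2 change -1.32, limma adjusted p = 0.0194), and Cbx1 did not. The stem cell marker sum of the WT libraries was 32041 to 50862 at day 0 and 5524 to 10441 at day 10, without overlap, and the fibroblast marker sum overlapped. Of the stem cell markers Lin28a went the other way, with means of 1350 and 2424. The part of either sum in these values was not tested.

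Ehmt1 stood at 1310 ± 373 scaled reads in WT at day 0 and 1950 ± 205 at day 10 (SD, n = 3), a log2 change of 0.60 ± 0.26 with an adjusted limma p of 0.240. Ehmt2 itself had 1155 ± 199 and 1125 ± 353 scaled reads (SD, n = 3), with a 95% interval of the log2 change from -0.74 to 0.58. Setdb1 (mm9 chr3:95127447-95161124, minus strand), the methyltransferase gene of the TRIM28 pathway, had 1450 ± 476 and 976 ± 213 (SD, n = 3), a log2 change of -0.54 ± 0.35. It overlaps Cers2 on the other strand. In all, 0 of 10 factors were called beside 4.42% of genes, and 2 of 10 had groups without overlap beside 18.4%. Of the 20624 genes 3469 had an unadjusted p under 0.05, and of the factors 3 (Ehmt1, Cbx1 and Trim28).

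In KO cells differentiation was accompanied by higher Suv39h1 and Wiz, the only 2 calls among the factors in any comparison with limma. Suv39h1 rose from 305.1, 646.1 and 648.2 scaled reads at day 0 to 1205.9, 1623.6 and 1709.7 at day 10. The lowest day 10 library thus exceeded the highest day 0 library, and the means were 533 ± 197 and 1513 ± 269 (SD, n = 3). The log2 change was 1.57 ± 0.38 (SE; 95% interval 0.75 to 2.39) or 2.97-fold, with an adjusted limma p of 0.0288.

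Wiz rose from 386.1, 433.5 and 521.7 scaled reads in KO at day 0 to 833.0, 881.6 and 962.7 at day 10. No library of day 0 reached those of day 10, and the log2 change was 1.00 ± 0.25 (SE; 95% interval 0.46 to 1.55) or 2.01-fold, with an adjusted limma p of 0.0314. Both calls were also made with edgeR (adjusted p = 0.0170 for Suv39h1 and 0.0147 for Wiz) and DESeq2 (1.03e-05 and 7.32e-06). Both were lost when KO day 0 replicate 2 or 3 or any one of the 3 KO day 10 libraries was left out. The adjusted limma p then lay between 0.0582 and 0.112 for Suv39h1 and between 0.0671 and 0.119 for Wiz. All day 10 libraries were shallow, and against the single shallow KO library of day 0 the log2 changes were 2.29 and 1.2. That library, KO day 0 replicate 1, had the background reads, and without it the changes were 1.21 and 0.90 (limma adjusted p = 0.0395 and adjusted p = 0.0383).

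In KO the summed stem cell markers were lower and the summed fibroblast markers higher in every day 10 library than in every day 0 library. The fibroblast sum rested mostly on Col1a1, with means of 353 at day 0 and 4071 at day 10. By means, Col1a2, Col3a1, Pdgfrb, Postn and Twist2 were also higher at day 10, while Thy1, Fap, Dcn and Lum were lower. Among the stem cell markers Lin28a was higher at day 10 (means 1376 and 2939) and the others lower. The part of either sum in these rises was not tested. These 2 calls of 10 stand beside 8.89% of all genes tested in KO. Groups without overlap were found for 3 of 10 factors (Suv39h1, Wiz and Trim28) beside 45.5% of genes. The median log2 change was 0.19 over the factors and -0.68 over all 20624 genes tested with limma. Over the 14884 genes kept by edgeR, with its own scaling, the median was -0.33, so the level of a typical gene depends on filter and scaling. With limma 502 genes were called higher and 1332 lower, and with edgeR 551 higher and 495 lower. Trim28 went from 7883 ± 170 to 6678 ± 1044 scaled reads (SD, n = 3), and the 95% interval of its log2 change ran from -0.89 to 0.39. That change was -0.25 with limma, -0.096 with edgeR and 0.044 with DESeq2, so no direction is given for it. Ehmt2 was 458 ± 92.1 at day 0 and 629 ± 129 at day 10 in KO (log2 change 0.46 ± 0.31, limma adjusted p = 0.304). For Suv39h2 the log2 change was -1.23 ± 0.56 (limma adjusted p = 0.145), but 0.03 against the single shallow library of day 0. Without the 2 libraries with background reads Suv39h2 (-1.87, limma adjusted p = 0.0179) and Setdb1 (-0.88, limma adjusted p = 0.0429) were called lower, against deep day 0 libraries alone. With depth as a covariate their changes were -0.13 and 0.0022.

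The test of whether differentiation changed a factor by different amounts in the 2 genotypes called none of the 10, nor any gene (0% of 20624 with limma; 1795 genes with an unadjusted p under 0.05; 0 with edgeR and 144 with DESeq2). The difference of the log2 changes, KO minus WT, was 1.13 ± 0.54 for Suv39h1 (SE; 95% interval -0.03 to 2.29), 0.80 ± 0.36 for Wiz (0.03 to 1.57), 0.78 ± 0.41 for Cbx1 (-0.10 to 1.65) and 0.74 ± 0.42 for Trim28 (-0.17 to 1.65). The limma adjusted p was 0.573, 0.567, 0.593 and 0.618 in that order. Suv39h1 had 619 ± 212 and 836 ± 311 scaled reads in WT at day 0 and day 10 (SD, n = 3), a log2 change of 0.44 ± 0.38 (limma adjusted p = 0.638) beside 1.57 in KO. Wiz had 613 ± 122 and 698 ± 47.9 in WT, a log2 change of 0.20 ± 0.25 (limma adjusted p = 0.763) beside 1.00 in KO. Cbx1 had 1794 ± 449 and 1536 ± 355 in KO, with a 95% interval of the log2 change from -0.83 to 0.40. Without the 2 libraries with background reads the difference of the changes was 0.69 for Suv39h1, 0.65 for Wiz, 0.44 for Cbx1 and 0.52 for Trim28. The changes in KO and WT are not shown to differ. The comparisons share libraries with one another.

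No change of the HP1 alpha and gamma genes passed the test in any comparison. Cbx5 (HP1 alpha, mm9 chr15:103021977-103070247, minus strand) had group means of 4429 ± 1398 and 4302 ± 2003 scaled reads in WT and KO at day 0 and 3825 ± 642 and 4666 ± 612 at day 10 (SD, n = 3). Its lowest library was KO day 0 replicate 1, at 1989.5. Cbx3 (HP1 gamma, mm9 chr6:51420615-51433703, plus strand) had 358 ± 41.8 and 343 ± 85.1 at day 0 and 390 ± 151 and 367 ± 15.3 at day 10. For Cbx3 the 95% intervals of the 4 log2 changes lay within -0.81 and 0.86.

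Among 18 other genes of H3K9 methylation, chosen with earlier results of these data known and all tested, none was called between KO and WT at either day. At day 0 none reached an unadjusted limma p under 0.05, the lowest being those of Cdyl2 (0.143), which encodes a chromodomain protein, and Setdb2 (0.217), a SET domain gene related to Setdb1. At day 10 the 2 lowest belonged to Prdm16, a PR domain H3K9 methyltransferase gene, with 267 ± 240 scaled reads in WT and 55.9 ± 17.0 in KO (log2 difference -1.91 ± 0.59, limma adjusted p = 0.242), and to Atf7ip2, related to the SETDB1 partner Atf7ip (-0.80 ± 0.37, adjusted p = 0.417). Without overlap were 2 of 18 genes higher (Prdm2 and Morc2a) and 1 lower (Prdm16), against the 18.1% of all genes given above; Prdm2 and Morc2a were named after their values were seen.

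Over differentiation 3 genes of this list were called in WT. There, Pphln1, a gene of the HUSH silencing complex, rose by 1.13 ± 0.28 on the log2 scale (limma adjusted p = 0.0316). Cdyl2 fell from 2745 ± 700 to 575 ± 270 scaled reads (SD, n = 3; log2 change -2.32, limma adjusted p = 0.00203). Zfp809, a KRAB zinc finger gene that silences retroviral DNA through TRIM28, fell from 674 ± 333 to 171 ± 57.0 (-1.92, limma adjusted p = 0.0437). These were 1 of 18 higher and 2 of 18 lower, beside 4.42% of all genes. All day 10 libraries were shallow, whereas the day 0 groups mixed deep and shallow ones. The part of depth in the changes of this list, in WT or in KO, was not tested.

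In KO limma called 4 of 18, each lower, beside 8.89% of all genes. They were Prdm16 (log2 change -2.79, limma adjusted p = 0.0175), Setdb2 (-2.51, adjusted p = 0.0225), Cdyl2 (-2.21, adjusted p = 0.00384) and Atf7ip2 (-1.30, adjusted p = 0.0439). Cdyl2 was thus called lower in both genotypes. In KO at day 0 the scaled reads were 464 ± 369 for Prdm16, 480 ± 225 for Setdb2, 1913 ± 698 for Cdyl2 and 278 ± 13.7 for Atf7ip2 (SD, n = 3). The Atf7ip2 call was lost with edgeR (adjusted p = 0.0837) and DESeq2 (adjusted p = 0.0678), while the other 3 were made with both. DESeq2 also called Zfp809 lower (adjusted p = 0.0229) and 2 genes higher in KO: Pphln1 (log2 change 1.06, adjusted p = 0.0111) and Adnp (1.12, adjusted p = 0.00903). In WT the 3 calls were also made with edgeR and DESeq2, and DESeq2 called Fam208a lower besides (adjusted p = 0.0250). Adnp and Fam208a were named after their values were seen. The median log2 change of the list was -0.38 in WT and -0.79 in KO, against -0.20 and -0.68 over all genes.

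The pattern of Ehmt2 over the 12 libraries was most like that of Vegfa, which encodes a vascular growth factor and lies on the same chromosome (Pearson r = 0.945 on log2(scaled reads + 1), highest of 10070 genes with a mean of at least 100). Vegfa had group means of 1039 and 540 scaled reads in WT and KO at day 0 and 991 and 722 at day 10. Next came Myo18a (r = 0.880), Sbno2 (0.875), Gtpbp2 (0.870, also on the chromosome of Ehmt2) and Sorbs3 (0.863). The genes most like Suv39h1 were Tead2 (r = 0.954), Limd2 (0.951), Pafah1b3 (0.948), Ppic (0.944) and Olfm1 (0.934). For Tead2, a TEAD family transcription factor gene, the means were 1067 and 900 at day 0 and 1495.5 and 1784 at day 10. The libraries behind these values share their depth classes, and the genes are the best matches of many.

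Reads that could be assigned to the musculus (mus) or castaneus (cas) allele were informative for 4 of the 10 factors. Over all libraries the cas share was 50.4% of 5628 allelic reads for Ehmt1, 50% of 1047 for Suv39h1, 46.6% of 1291 for Suv39h2 and 40.1% of 3729 for Cbx1. It was 0.477% of 1885 for Ehmt2, 1.61% for Setdb1, 0.403% for Cbx3, 0.537% for Cbx5 and 0.383% for Trim28, and Wiz had 49 allelic reads in all. Genes within 2 Mb of Ehmt2 had a cas share of 5.97%, and those around Wiz, Setdb1, Cbx3 and Cbx5 had 2.71 to 9.29%. For Ehmt2, Setdb1, Cbx3 and Cbx5 a share near 0 gives no comparison of alleles. For Wiz, with 4 cas reads of 49 (8.16%), the reads are too few for one. Genes around Trim28 had a cas share of 26.3%, above the share of Trim28 itself.

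For Suv39h1, on the X chromosome, the mean cas share was higher at day 10 than at day 0 in both genotypes, without a call. At day 0 the cas share of its reads was 30.3% (10 of 33 reads), 18.2% (4 of 22) and 46.7% (154 of 330) in WT, and 44.4% (8 of 18), 51.1% (116 of 227) and 41.6% (87 of 209) in KO. At day 10 it was 40.0% (6 of 15), 67.4% (29 of 43) and 89.7% (35 of 39) in WT, and 85.4% (35 of 41), 60.0% (24 of 40) and 50% (15 of 30) in KO. The ranges of the days overlapped in both genotypes. The 95% Wilson interval of WT day 10 replicate 1, from 19.8 to 64.3%, shows how little 15 reads fix; such intervals cover counting error only.

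The group means were 31.7% ± 14.3 and 65.7% ± 24.9 in WT (SD, n = 3), a log2 odds change of 2.16 (edgeR adjusted p = 0.660). In KO they were 45.7% ± 4.87 and 65.1% ± 18.2, a log2 odds change of 1.2 (edgeR adjusted p = 0.416). Neither passed, beside 0.0256% of 7802 genes called in WT and 1.26% of 7791 in KO. Without WT day 10 replicate 3 the WT change was 1.33, and without KO day 10 replicate 1 the KO change was 0.54. Over all X-linked allelic reads the cas share was 49.2 to 51.6% in WT and 49.8 to 52.5% in KO at day 0, and 69.6 to 77.7% and 68.2 to 72.0% at day 10. The median log2 odds change of the X-linked genes tested was 1.59 in WT and 1.09 in KO.

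Between KO and WT the cas share of Suv39h1 had a log2 odds difference of 0.62 at day 0 (edgeR adjusted p = 1), where 0% of 8653 genes were called (247 with an unadjusted p under 0.05, and 0 with DESeq2). At day 10 the mean cas shares were 65.1% in KO and 65.7% in WT, and 0.0913% of 7666 genes were called. No factor was called in either comparison. Ehmt1 kept both alleles near equal, between 40.6 and 57.4% cas in the 12 libraries, and in KO at day 10 was 55.3% ± 1.65 against 45.8% ± 2.76 in WT (SD, n = 3; log2 odds difference 0.54, edgeR adjusted p = 1). Cbx1 ranged from 24.6 to 50.8%, with group means between 38.3 and 40.8%. Suv39h2 had under 10 allelic reads in 2 WT libraries of day 0 and was not tested there.

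**Figure D3:**
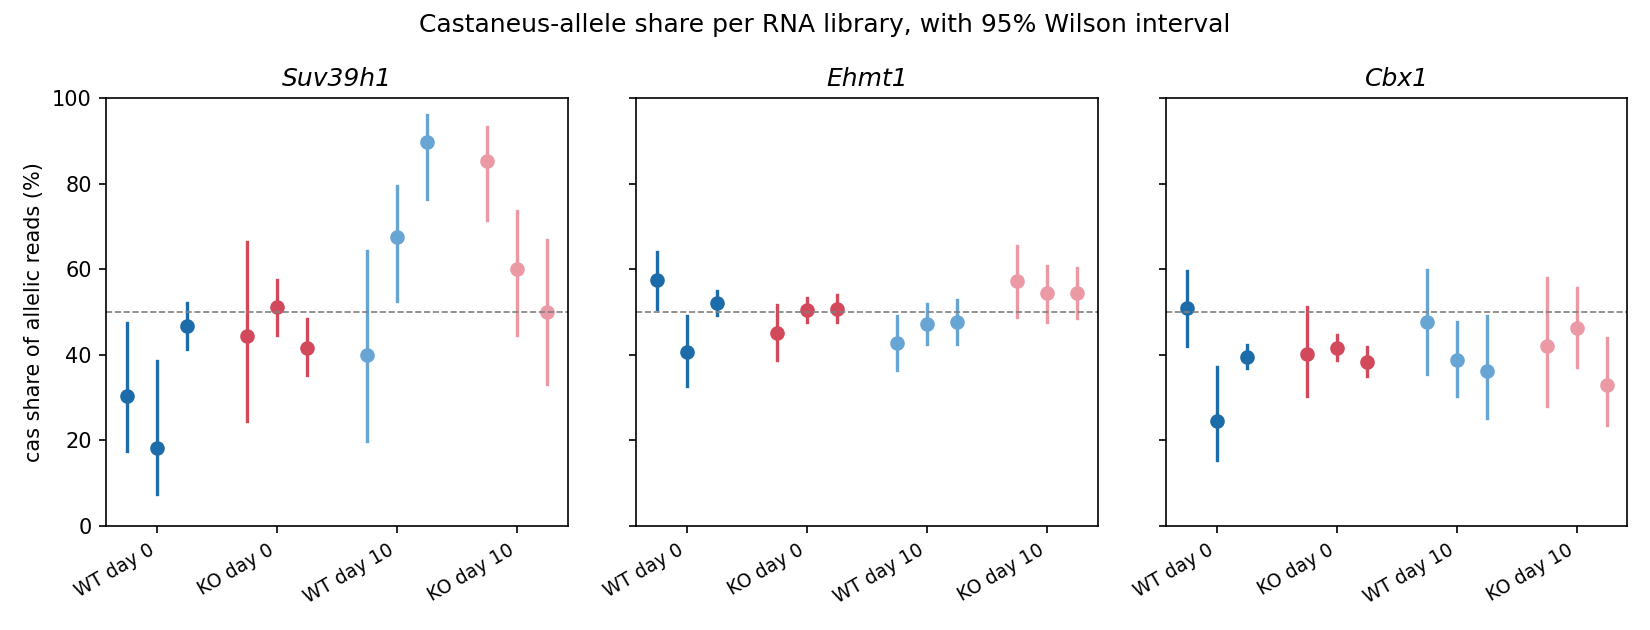
Share of allelic reads from the castaneus allele (percent) for Suv39h1, Ehmt1 and Cbx1 in each RNA library, with 95% Wilson intervals; the dashed line is at 50%. Suv39h1 reaches 89.7% in WT and 85.4% in KO at day 10, with wide intervals, while Ehmt1 stays between 40.6 and 57.4%.

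H3K9ac was listed at the start of 9 of the 10 factors in each of WT day 0, KO day 0 and WT day 10, and of all 10 in KO day 10. A peak counted when it lay within 1 kb of the gene start, and 49.7, 40.0, 50.8 and 52.1% of all 24016 genes had one in those 4 lists. There is 1 sample per group and the lists differ in length (37310 to 63050 peaks), so peaks are described within each list, with the authors' fold enrichment, and no change is read between lists. All peaks down to a -log10 p of 2.0 are listed, and most at these genes are weak. At a -log10 q of at least 5 the counts were 0, 1, 3 and 3 of 10, beside 0.275, 1.6, 9.64 and 10.6% of all genes.

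Cbx3 had the strongest peak of the 10 in every list. Its fold enrichment was 4.36 in WT day 0, 5.32 in KO day 0, 7.94 in WT day 10 and 8.96 in KO day 10, within the top 1.35% of each list by p. The start of Hnrnpa2b1 lies 722 bases upstream on the other strand and falls in the same peak, as the start of Hnrnpa1, 581 bases from that of Cbx5, falls in the Cbx5 peak, so neither peak belongs to 1 gene. In WT day 10 the other peaks past a -log10 q of 5 were those of Ehmt1 (fold 6.21) and Trim28 (5.63), and in KO day 10 those of Cbx5 (5.88) and Ehmt1 (5.70).

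The Ehmt2 start lay inside a peak in all 4 lists, including both KO samples. In KO day 0 the peak spanned mm9 chr17:35034801-35036652 with a fold of 2.64, close to that list's median of 2.57. In KO day 10 it spanned chr17:35034997-35036676 with a fold of 4.29, at 9.07% of the list by p. Suv39h1 had a fold of 2.40 in WT day 0, 3.59 in KO day 0, 4.21 in WT day 10 and 4.27 in KO day 10, at 53.5, 10.7, 12.7 and 8.48% of each list. Wiz was the exception: no peak was listed within 1 kb of its mm9 start in WT day 0, KO day 0 or WT day 10, nor within 2.5 kb. In KO day 10 there was 1 weak peak of 453 bases beside the start (fold 2.93, -log10 q 0.785). RefSeq lists 4 promoters for Wiz, and peaks were searched only around the start in the deposited table.

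**Figure D4:**
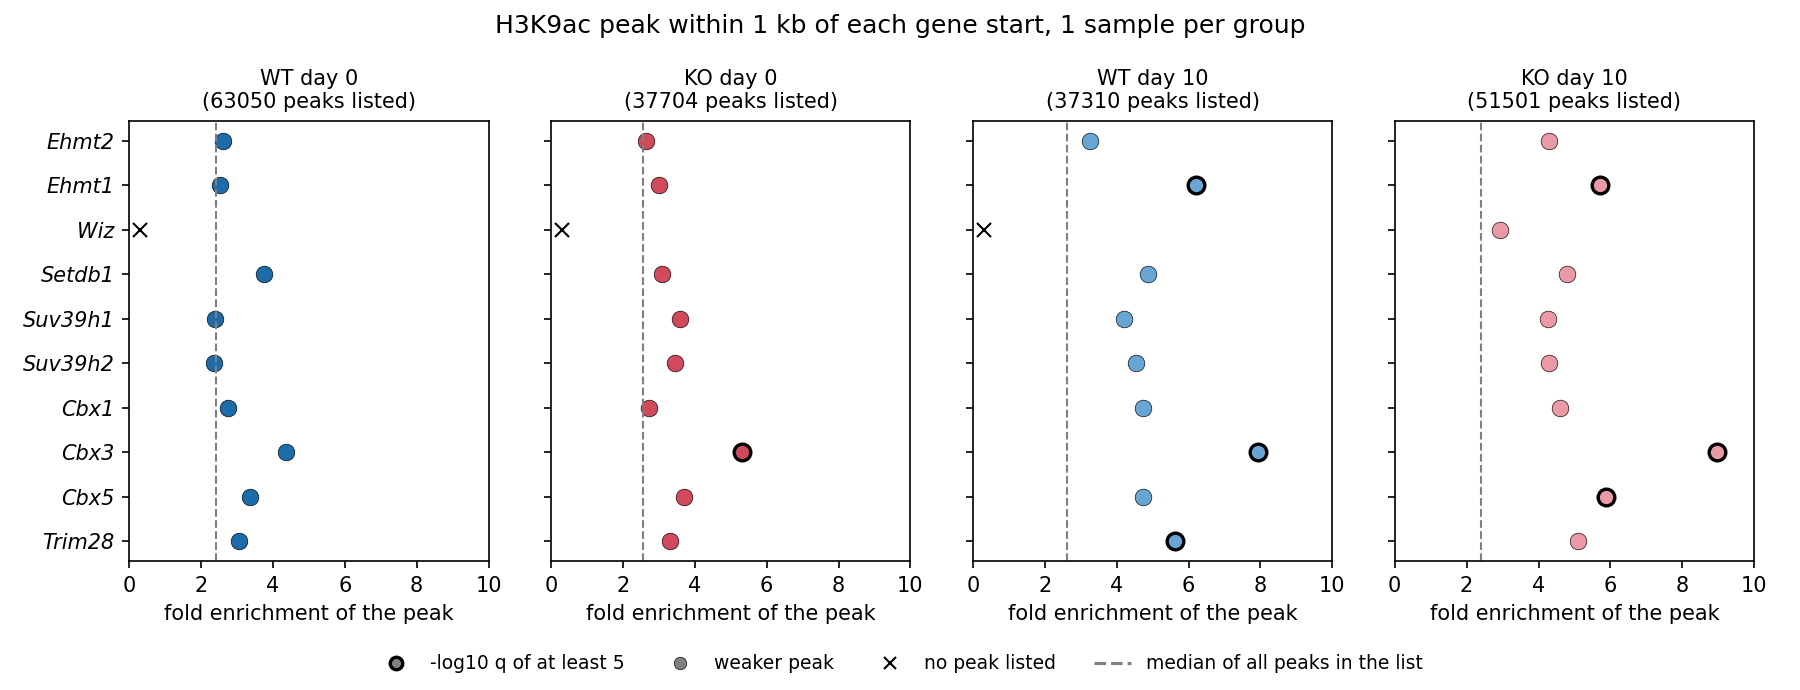
Fold enrichment of the strongest H3K9ac peak within 1 kb of each gene start in the authors' 4 peak lists (1 sample each); crosses mark genes without a listed peak, bold outlines a -log10 q of at least 5, and dashed lines the median fold of the list. Cbx3 is highest in each panel, from 4.36 to 8.96, and Wiz has a peak only in KO day 10.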

How the data were processed

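Total RNA after ribosomal depletion was sequenced from 12 libraries, and H3K9ac ChIP from 4 samples. Per the submitters' processing notes, HOMER, MACS2, Novoalign, TopHat and build mm9 were used; versions, counting and strand are not given in the sources used here. The gene table holds a signal per gene that the authors scaled to a common total in each library. The listed gene length equals the genomic span in 99.3% of rows, so intron reads may be counted. Each value was a whole multiple of 1 read's worth in 100% of cases (tolerance 0.006). The allele table holds the authors' read counts per gene for the mus and cas alleles. The authors' deposited comparisons give log2 ratios and unadjusted p-values. The authors' MACS2 peak lists give a fold enrichment (a ratio), a -log10 p and a -log10 q per peak, per the file headers and labels; the control used is not stated.

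Values above 1 in at least 3 libraries were kept (20624 genes) and log2(value + 1) was fitted over all 12 libraries with limma 3.58.1 (trend, robust) in R 4.3.3, adjusted by Benjamini-Hochberg over all genes at 0.05. A gene is called where it passes. edgeR 4.0.16 and DESeq2 1.42.0 were run on the recovered reads as alternatives. Allele shifts used edgeR's quasi-likelihood test with library terms and at least 10 allelic reads in each compared library. Other alternatives were scaling, filter, pseudocount, depth covariate, replicate block and leaving out libraries. Single genes had an exact two-sided permutation test. The limma, edgeR and DESeq2 fits and the edgeR allele test were tried on simulated data. The permutation test and the DESeq2 allele test were not. The members and lists were chosen with earlier results of these data known; genes outside them were named by their call, their lowest p or, for likeness, the 5 highest correlations. H3K9me2 samples and 2 inputs with conflicting day labels were not used here.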

Additional observations from a re-analysis of the deposited data

How the results depend on the processing

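With DESeq2, 15 genes were called between KO and WT at day 0 and 558 at day 10, and 144 for the difference of the changes, where limma called 0. At day 10 limma called 22 genes with no filter, 111 with a pseudocount of 0.1, 4 with only the compared groups and 41 with depth as a covariate. Leaving out 1 library at a time gave 0 to 1 genes at either day. From day 0 to day 10 in WT the 911 calls became 1823 with DESeq2, 396 with only the compared groups, 1514 with the depth covariate, 2123 without the 2 libraries with background reads, and 466 to 1374 leaving out 1 library at a time. Among the 10 factors Cbx1 was then 1 call with DESeq2, with the depth covariate and without Rn45s in the total, and leave-one-out gave 0 to 1. In KO the 1834 calls became 945 with no filter, 1054 with a pseudocount of 5, 1046 with edgeR, 3351 with DESeq2, 4105 with only the compared groups, 3012 with the depth covariate, 5390 without the background libraries, and 199 to 4517 leave-one-out. The 2 calls among the factors became 1 with no filter (Suv39h1 lost, adjusted p = 0.0657), 4 without the background libraries (with Setdb1, -0.88, and Suv39h2, -1.87), and 0 to 3 leave-one-out. The log2 change of Setdb1 in KO turned from -0.52 to 0.0022 with the depth covariate; the cause was not tested.

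Allele calls in WT (2) became 1 with at least 20 allelic reads, 4 with at least 5, 21 with DESeq2 and 1 to 85 leave-one-out. In KO (98) they became 33 and 16 to 442, and between KO and WT at day 10 (7) they were 4 with at least 5 reads, 0 with DESeq2 and 2 to 9 leave-one-out. At a -log10 q of at least 5, promoter peaks remained at 0, 1, 3 and 3 factors in WT day 0, KO day 0, WT day 10 and KO day 10.

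Replicate numbers are not said to pair the libraries. Residuals of same-numbered WT and KO libraries correlated at 0.43, -0.11 and 0.58 at day 0 and at -0.0042, 0.096 and 0.00014 at day 10. Differently numbered day 0 pairs reached 0.60 (WT replicate 3 with KO replicate 2) and -0.63 (WT replicate 3 with KO replicate 1). At day 0 the sign followed the depth class, so these values cannot decide on pairing. With the replicate block the factors called were 0, 0, 0, 2 and 0 as without it, and 850 and 1612 genes were called over differentiation in WT and KO. For allele shifts the block could not be estimated beside the library terms. Of 64 changes of the factors, 29 with an unadjusted p under 0.3 were followed over 619 alternatives, of which 595 kept direction and side of the threshold. Of the 35 others, 28 changed sign at least once, and no direction is read from them. Depth limits the allele shares, some of which rest on 15 to 43 reads.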
